A study of Mus musculus with 16 samples.

Results

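Class I odorant receptors were followed as a set of 119 genes, chosen as the odorant receptor (Olfr) probe sets whose identifiers place them on chromosome 7 and whose symbols run from Olfr543 to Olfr692, together with Olfr33 and Olfr64 to Olfr69. Olfr78, which belongs to the same group, was not analysed here. They were 119 of 1080 numbered odorant receptor genes and of 19505 genes measured. The other 961 receptors, class II, served as contrast, and 111 of these also had chromosome 7 identifiers. Each class I receptor had 1 probe set, and all 119 matched a RefSeq gene of chromosome 7 (GRCm38.p6).

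Odorant receptors are G protein-coupled receptors, and each mature olfactory sensory neuron normally expresses a single allele of a single receptor gene. Class I receptors, also called fish-like receptors, form a single large cluster around the β-globin genes and are used mainly by neurons of the dorsal olfactory epithelium. An enhancer called the J element acts on this cluster, and many class I receptors with known ligands respond to carboxylic acids. Class II receptors are spread over many chromosomes and include the known receptors for many aldehydes.

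The mice were S100a5-tauGFP C57BL/6 animals of both sexes, 7 to 12 weeks old, in which a GFP reporter is tied to S100a5, a calcium-binding protein gene that active olfactory neurons express. Odor pools came from mice given bourgeonal, an aromatic aldehyde smelling of lily of the valley, and vehicle pools from mice given filtered air. Both were kept for 40 h in chambers with 3.1 L/min of clean air, and pulses of 10 s were delivered every 20 min from hour 26. Dissociated olfactory mucosa was sorted by fluorescence, and every pool held 3 mice and gave 1 library per gate, titled GFP- or GFP+. There were 4 pools for odor and 4 for vehicle. They form 4 groups of 4 libraries, namely odor titled GFP-, odor titled GFP+, vehicle titled GFP- and vehicle titled GFP+.

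Titles and cell type entries contradict each other about the gate in each of the 16 samples, and groups follow the titles. Within pools, S100a5 was 1.02 ± 0.25 higher on the log2 scale in titled GFP- than in titled GFP+ libraries (SD, n = 8, 8 of 8 pools). A sign-flip test over the pools, exact and two-sided, gave p = 0.00781, which is the smallest that 8 pools allow. The gate ratio is therefore given as titled GFP- minus titled GFP+ on the log2 scale. Omp, the marker of mature olfactory neurons, averaged 18.91 in odor titled GFP-, 18.80 in odor titled GFP+, 18.82 in vehicle titled GFP- and 18.84 in vehicle titled GFP+ libraries. The median over all genes lay between 5.94 and 6.00 in the 8 libraries titled GFP-, against 6.28 and 6.36 in the 8 titled GFP+. All 9 measured neutrophil and myeloid genes were lower in libraries titled GFP- in both treatments. Their summed level on the log2 scale was 7.21 to 8.98 in libraries titled GFP-, against 17.70 to 18.89 in those titled GFP+. Also lower in both treatments were all 6 microvillar and all 4 progenitor genes measured. Among these, Chat (microvillar) and Neurog1 (progenitor) lay below the background guide described further on in all 4 groups. Of 8 sustentacular genes 7 were lower in odor and 6 in vehicle pools. The part of these other cells in the receptor ratios was not tested. The labels name no separate batches, and no library's values were identical to another's.

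The windows upstream of the members with the most unequal levels between gates are shown for reference. RefSeq windows (GRCm38.p6, 250 bases before to 50 after the annotated start) matched 103 of the 119 members. In 76 of these the annotated start was the start codon itself, so that the last 50 bases of the window are coding sequence and the 250 before them need not hold the promoter. The 6 sequences below are the 250 bases before the start for every member among the 10 highest and 10 lowest gate ratios whose annotated start lies before the start codon. They are Olfr613 (chr7:103550118-103550367, plus strand), Olfr651 (chr7:104552634-104552883, plus strand), Olfr550 (chr7:102578219-102578468, plus strand) and Olfr570 (chr7:102900092-102900341, plus strand), all higher in libraries titled GFP-, and Olfr69 (chr7:103771595-103771844, minus strand) and Olfr629 (chr7:103741323-103741572, minus strand), both lower. Capitals mark TAATNA (a homeodomain core), CCCNNGGG (a core bound by the Olf1/Ebf factors) and TATAAA (the TATA box), searched on both strands, and matches may overlap.
Olfr613: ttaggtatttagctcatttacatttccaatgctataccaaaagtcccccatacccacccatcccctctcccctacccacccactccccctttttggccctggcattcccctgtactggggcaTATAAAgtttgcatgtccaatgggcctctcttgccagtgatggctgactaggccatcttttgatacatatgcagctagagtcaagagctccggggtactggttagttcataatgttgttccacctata
Olfr651: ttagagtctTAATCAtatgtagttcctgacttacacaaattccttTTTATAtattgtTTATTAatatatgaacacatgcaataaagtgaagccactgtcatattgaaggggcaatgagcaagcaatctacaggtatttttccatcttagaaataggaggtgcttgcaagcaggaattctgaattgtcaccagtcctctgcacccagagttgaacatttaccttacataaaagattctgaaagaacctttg
Olfr550: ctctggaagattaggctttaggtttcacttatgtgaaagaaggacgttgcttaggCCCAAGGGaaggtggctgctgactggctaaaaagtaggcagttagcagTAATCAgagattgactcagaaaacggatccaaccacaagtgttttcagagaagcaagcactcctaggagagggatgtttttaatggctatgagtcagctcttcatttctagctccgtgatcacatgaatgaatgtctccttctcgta
Olfr570: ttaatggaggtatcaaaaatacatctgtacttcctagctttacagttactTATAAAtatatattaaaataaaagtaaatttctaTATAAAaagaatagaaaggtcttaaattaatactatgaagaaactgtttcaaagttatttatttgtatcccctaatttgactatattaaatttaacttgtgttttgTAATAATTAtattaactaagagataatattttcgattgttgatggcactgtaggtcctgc
Olfr69: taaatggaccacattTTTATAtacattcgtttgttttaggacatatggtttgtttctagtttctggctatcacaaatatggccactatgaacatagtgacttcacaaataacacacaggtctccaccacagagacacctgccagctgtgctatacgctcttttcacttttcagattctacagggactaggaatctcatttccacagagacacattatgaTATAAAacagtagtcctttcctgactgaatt
Olfr629: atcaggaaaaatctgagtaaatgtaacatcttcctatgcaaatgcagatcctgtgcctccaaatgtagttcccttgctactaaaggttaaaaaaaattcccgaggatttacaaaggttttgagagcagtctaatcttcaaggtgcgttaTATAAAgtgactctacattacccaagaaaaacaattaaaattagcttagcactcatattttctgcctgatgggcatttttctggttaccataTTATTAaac
TAATNA was found in 65 of 103 class I windows of 300 bases (63.1%), in 66.7% of 818 class II windows and in 26.8% of the 27025 windows of the table. TATAAA was found in 39.8% of class I, 41.4% of class II and 14.2% of all windows. CCCNNGGG was found in 2.91% of class I, 2.93% of class II and 13.4% of all windows. TAATTA, which is contained in TAATNA, was found in 14.6% of class I, 19.1% of class II and 5.31% of all windows. These windows are unlike, since the annotated start was the start codon in 73.8% of class I, 73.0% of class II and 6.75% of all windows. Where it lay before the start codon, CCCNNGGG was found in 7.41% of 27 class I and 7.24% of 221 class II windows. TATAAA was found there in 48.1% and 33.5%, and TAATNA in 63.0% and 68.8%. Among members higher in libraries titled GFP- in both treatments 21 of 32 windows held TAATNA, and among those lower in both 12 of 18. TATAAA was present in 16 of 32 and 9 of 18 of the same windows. A match describes letters in the window and was not taken as a bound site.

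Most class I receptors were measurable. As a guide to background, the 95th percentile of 319 vomeronasal receptor genes was taken in each library, and the highest value in a group was 4.90 in odor titled GFP-, 4.57 in odor titled GFP+, 4.97 in vehicle titled GFP- and 4.64 in vehicle titled GFP+ libraries. The group means of 93 class I receptors (78.2%) lay above this guide in all 4 groups, those of 14 in some groups and those of 12 in none, against 80.1% of class II receptors in all 4. The 12 at or below the guide were Olfr543, Olfr547, Olfr555, Olfr564, Olfr568, Olfr574, Olfr583, Olfr585, Olfr589, Olfr631, Olfr663 and Olfr688. The median class I level per library was 7.94 to 8.62 in the 8 libraries titled GFP-, against 6.95 to 8.13 in the 8 titled GFP+.

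The first comparison asked which class I receptors were unevenly divided between the 2 gates. In odor pools 47 of 119 were higher and 23 lower in libraries titled GFP- (limma with the pool as a block, adjusted p under 0.05), where 7.82% of all genes were called higher and 10.2% lower. In vehicle pools 41 were higher and 25 lower, against 6.23% and 9.95% of all genes. With the deposited values class I receptors were thus called in both directions more often than genes at large, as class II receptors were. Of 961 class II receptors 378 were higher and 265 lower in odor pools, and 344 were higher and 271 lower in vehicle pools. As shares, 39.5% of class I and 39.3% of class II receptors were higher in odor pools, and 19.3% and 27.6% were lower. In vehicle pools 34.5% of class I and 35.8% of class II were higher, and 21.0% and 28.2% were lower. Of the 111 chromosome 7 class II receptors 45.0% were higher and 18.0% lower in odor pools. In vehicle pools 44.1% of them were higher and 19.8% lower. Their lower shares were thus slightly under those of class I. In sorted bulk samples, fewer neurons using a receptor and less receptor RNA per neuron cannot be told apart.

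The split depended on the scaling of the libraries. With the deposited values the median ratio over all genes was 0.10 in odor pools and 0.09 in vehicle pools, and 67.1% and 62.1% of the class I calls were higher ones, beside 43.3% and 38.5% of the calls over all genes. When every library was centred on its median, the median over all genes moved to 0.46 and 0.44. Class I then had 71 higher and 21 lower in odor pools and 66 higher and 23 lower in vehicle pools, with 59.7% and 55.5% of its receptors called higher, beside 54.5% and 53.8% of all genes. The count of higher class I receptors is then near that of genes at large, while 17.6% and 19.3% were lower beside 7.95% and 7.80% of all genes. Higher calls were then 77.2% and 74.2% of the class I calls and 87.3% of the calls over all genes in both treatments, so that class I stood below all genes in this share and above them with the deposited values. Ratios below are those of the deposited values.

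The class I ratios had a median above 0 and reached farther below 0 than above it. Their median was 0.60 in odor pools and 0.45 in vehicle pools, beside 0.32 and 0.22 for class II, 0.57 and 0.48 for the chromosome 7 class II receptors and 0.10 and 0.09 for all genes. Averaged over both treatments the fitted class I ratios ran from -7.16 to 4.54, both ends having a gate at or below the guide in 1 or both treatments, with quartiles at -0.41 and 1.38, a median of 0.53 and a mean of 0.22. The class II ratios ran from -9.14 to 5.49, with quartiles at -1.01 and 1.56, a median of 0.25 and a mean of -0.06, so that median and mean differ in sign there. A mean ratio above 2 was found in 11.8% of class I and 16.6% of class II receptors, and a ratio below -2 in 11.8% and 16.5%. For the chromosome 7 class II receptors these shares were 28.8% above 2 and 9.01% below -2. The interquartile range of class I lay between 1.91 and 2.20 in the 8 pools and that of class II between 2.51 and 2.99. In each of the 8 pools class I ratios were thus less spread than class II ratios, which was not tested further. The class I median per pool was 0.49 ± 0.23 in odor pools and 0.44 ± 0.30 in vehicle pools (SD, n = 4 each), with pools from 0.20 to 0.70 and from 0.04 to 0.70. The vomeronasal receptors, used here as background, also had medians above 0 in all 8 pools, at 0.24 ± 0.08 in odor and 0.26 ± 0.08 in vehicle pools, and in vehicle pool 1 theirs was the higher one, at 0.20 against 0.04. The part of such background in the class I median was not tested.

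**Figure D1:**
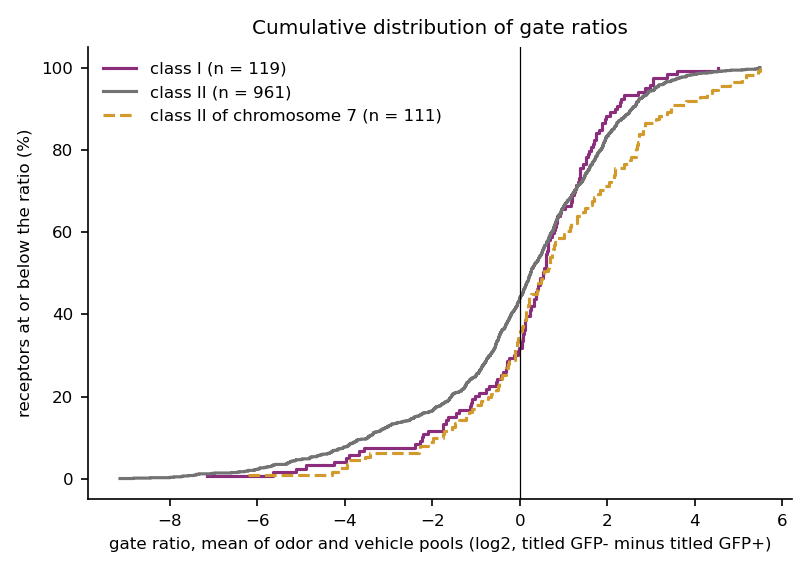
Cumulative share of receptors (vertical axis, percent) at or below a gate ratio (horizontal axis, log2, titled GFP- minus titled GFP+, mean of both treatments) for 119 class I, 961 class II and 111 chromosome 7 class II receptors. The class I curve crosses 50% at 0.53 and the class II curve at 0.25, and below -2 the class I curve lies under the class II curve. Ratios below -2 belong to 11.8% of class I and 9.01% of the chromosome 7 class II receptors.

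The pattern was shared by the treatments, which come from different mice. Of the 119 receptors 38 were higher in both, 22 lower in both and 0 were called in opposite directions. Another 10 were called in odor pools only, 6 in vehicle pools only and 43 in neither. Being called in a single treatment does not show a difference between them. The ratio was above 0 in all 8 pools for 44 receptors and below 0 in all 8 for 23. The 44 include Olfr583 and Olfr688, which were at or below the guide in every group. As the vomeronasal medians were also above 0 in all 8 pools, such a sign can occur at background. Of those called in both treatments, 34 higher and 20 lower receptors differed by more than 2-fold in both. These counts over both treatments or all 8 pools were not set beside the same counts for all genes or class II. They therefore do not show that such sharing is particular to class I. Across the 119 receptors Pearson's r between odor and vehicle ratios was 0.98 and Spearman's rho 0.95, a description across genes that share the same 16 arrays. The SD of a receptor's ratio over 4 pools had a median of 0.57 in odor and 0.65 in vehicle pools, beside 0.58 and 0.59 for class II and 0.31 and 0.33 for all genes.

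Among the receptors higher in libraries titled GFP-, the largest mean ratio belonged to Olfr613. Its levels were 9.70, 7.79, 7.89 and 10.11 in odor titled GFP- libraries, against 5.17, 4.08, 4.21 and 4.58 in odor titled GFP+ libraries. In vehicle pools they were 8.55, 8.29, 8.81 and 9.69 in titled GFP- libraries, against 4.61, 3.68, 3.86 and 4.34 in titled GFP+ libraries. The gates did not overlap in either treatment, and the mean of both titled GFP+ groups lay at or below the background guide. The ratio is therefore a lower bound, at least 19.2-fold higher in odor pools (limma adjusted p = 2.66e-06) and at least 20.0-fold higher in vehicle pools (adjusted p = 1.67e-06).

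Olfr593 was above the guide in all groups. It had 10.89, 10.85, 10.48 and 11.19 in odor titled GFP- libraries, against 6.69, 7.69, 6.41 and 8.53 in odor titled GFP+ libraries. Vehicle titled GFP- libraries had 10.29, 10.91, 10.84 and 10.80, against 6.61, 7.08, 6.81 and 7.73 in vehicle titled GFP+ libraries. All titled GFP- values lay above all titled GFP+ values, with ratios of 3.52 ± 0.25 in odor pools (SE, limma adjusted p = 3.22e-06) and 3.65 ± 0.25 in vehicle pools (adjusted p = 2.69e-06).

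Olfr633 varied more between pools. Its levels were 12.09, 11.05, 9.30 and 9.67 in odor titled GFP- libraries, against 7.66, 8.64, 6.02 and 6.93 in odor titled GFP+ libraries. Vehicle titled GFP- libraries had 11.62, 11.52, 9.86 and 9.65, against 8.48, 8.17, 6.97 and 7.59 in vehicle titled GFP+ libraries. In both gates of both treatments pools 1 and 2 lay above pools 3 and 4, while the gates themselves did not overlap. The ratio was 3.21 ± 0.30 in odor pools and 2.86 ± 0.30 in vehicle pools (SE, adjusted p = 2.58e-05 and 7.04e-05).

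Olfr651 had 9.27, 8.41, 8.36 and 8.64 in odor titled GFP- libraries, against 5.84, 6.15, 4.45 and 4.03 in odor titled GFP+ libraries. In vehicle pools it had 8.82, 8.62, 8.27 and 7.73 in titled GFP- libraries, against 6.53, 5.82, 5.38 and 5.62 in titled GFP+ libraries. The gates did not overlap, and the ratio was 3.55 ± 0.31 in odor and 2.52 ± 0.31 in vehicle pools (SE, adjusted p = 1.26e-05 and 0.000185). The other 6 of the 10 highest were Olfr644, Olfr550, Olfr649, Olfr618, Olfr570 and Olfr578. Their ratios ran from 2.48 to 3.17 in odor pools and from 1.91 to 3.70 in vehicle pools, and each was above 0 in all 8 pools. The widest spread among them was that of Olfr570 in odor pools, with 0.73 in pool 2 and 2.71 to 3.77 in the others.

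Among the receptors lower in libraries titled GFP-, Olfr677 stood farthest from 0. It had 5.25, 4.97, 4.47 and 4.04 in odor titled GFP- libraries, against 12.27, 12.09, 11.97 and 11.72 in odor titled GFP+ libraries. Vehicle titled GFP- libraries had 4.59, 5.96, 5.79 and 4.47, against 11.94, 12.55, 12.27 and 12.01 in vehicle titled GFP+ libraries. The highest titled GFP- library, at 5.96, lay far below the lowest titled GFP+ library, at 11.72. In odor pools this gives at least 129.7-fold lower (limma adjusted p = 6.51e-09), and in vehicle pools the ratio was -6.99 ± 0.20 (SE, adjusted p = 1.11e-08).

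Olfr69 and Olfr68 are adjacent members before the β-globin genes, with Olfr67 between Olfr68 and these genes. Olfr69 had 6.89, 7.00, 6.39 and 7.84 in odor titled GFP- libraries, against 12.93, 13.32, 12.61 and 12.86 in odor titled GFP+ libraries. In vehicle pools it had 7.79, 6.23, 7.67 and 7.84 in titled GFP- libraries, against 12.25, 13.00, 13.45 and 12.35 in titled GFP+ libraries. Its ratio was -5.90 ± 0.36 in odor and -5.38 ± 0.36 in vehicle pools (SE, limma adjusted p = 9.23e-07 and 2e-06), with no overlap of the gates.

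Olfr68 had 8.10, 7.55, 7.51 and 7.67 in odor titled GFP- libraries, against 12.03, 13.01, 12.80 and 11.93 in odor titled GFP+ libraries. In vehicle pools it had 7.71, 6.25, 8.05 and 8.25 in titled GFP- libraries, against 12.49, 12.95, 12.86 and 12.06 in titled GFP+ libraries. Vehicle pool 2 was lowest in titled GFP- and highest in titled GFP+, for a ratio of -6.71 there and -4.81 to -3.81 in the other vehicle pools. The fitted ratio was -4.74 ± 0.40 in odor and -5.03 ± 0.40 in vehicle pools (SE, adjusted p = 1.09e-05 and 8.04e-06).

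Olfr632 had 4.25, 3.05, 4.83 and 4.62 in odor titled GFP- libraries, against 10.77, 9.89, 9.28 and 8.57 in odor titled GFP+ libraries. Vehicle titled GFP- libraries had 5.17, 4.13, 5.16 and 5.22, against 10.76, 10.41, 9.09 and 8.62 in vehicle titled GFP+ libraries. The titled GFP- means lay at or below the guide, which bounds the change at 28.1-fold lower or more in odor and 24.1-fold lower or more in vehicle pools (adjusted p = 4.25e-05 and 0.000121). Its neighbour Olfr633 went the opposite way in the same libraries.

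Olfr672 was bright in both gates. It had 10.40, 8.79, 9.23 and 9.51 in odor titled GFP- libraries, against 12.90, 13.24, 13.25 and 13.47 in odor titled GFP+ libraries. Vehicle titled GFP- libraries had 10.10, 9.44, 10.36 and 10.98, against 13.52, 13.81, 13.69 and 13.47 in vehicle titled GFP+ libraries. The ratio was -3.73 ± 0.33 in odor and -3.40 ± 0.33 in vehicle pools (SE, adjusted p = 1.5e-05 and 3.36e-05).

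The other 5 of the 10 lowest were Olfr629, Olfr686, Olfr611, Olfr600 and Olfr681. In libraries titled GFP- the means of Olfr629, Olfr686 and Olfr600 lay at or below the guide in both treatments, for bounds of at least 8.43-fold, 10.1-fold and 9.83-fold lower in odor pools and at least 9.43-fold, 9.03-fold and 6.71-fold lower in vehicle pools. Olfr611 and Olfr681 were above it throughout, with ratios of -3.73 and -2.46 in odor pools and -4.08 and -2.35 in vehicle pools. All 5 were below 0 in all 8 pools. Over all class I calls both gates lay above the guide for 38 of 47 higher and 17 of 23 lower receptors in odor pools, and for 37 of 41 and 19 of 25 in vehicle pools. In odor pools 3 higher receptors had neither gate above it.

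**Figure D2:**
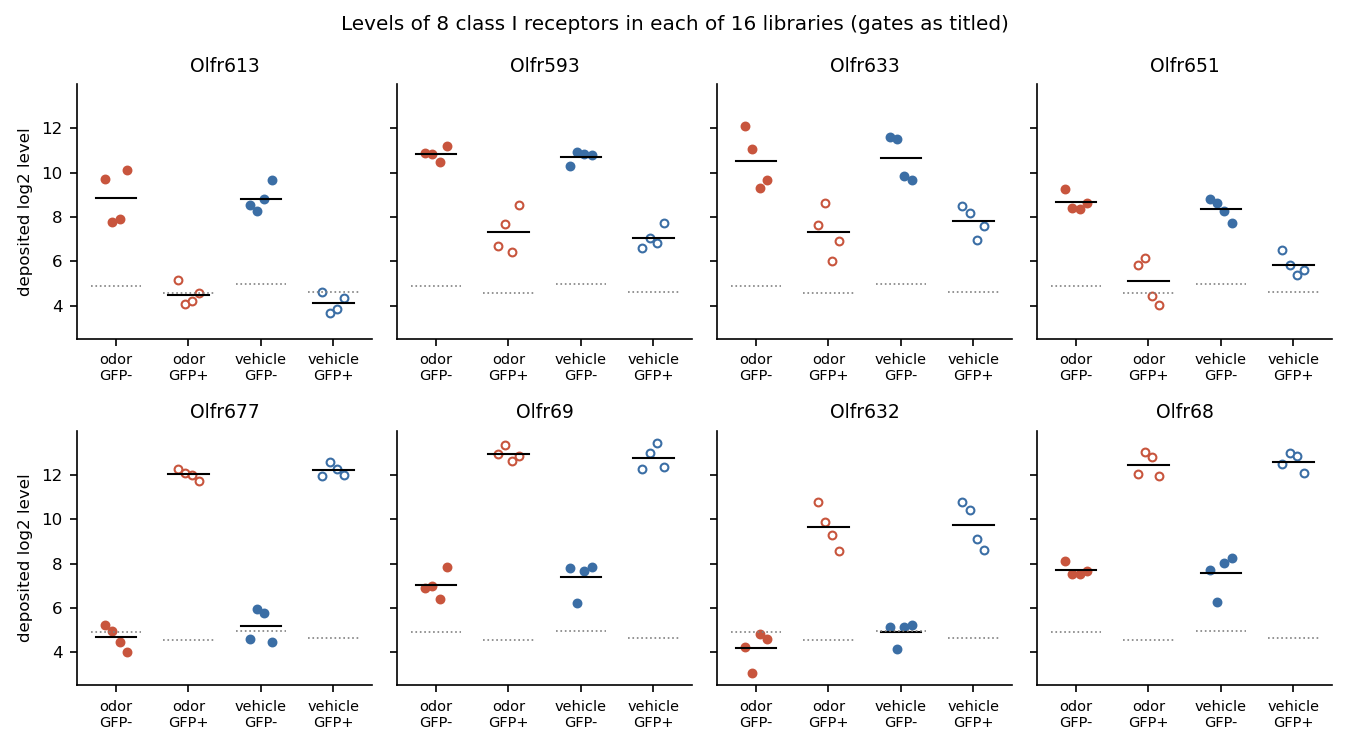
Deposited log2 level (vertical axis) of 8 class I receptors in each of 16 libraries, in the order odor titled GFP-, odor titled GFP+, vehicle titled GFP- and vehicle titled GFP+. Points are libraries, solid lines group means and dotted lines the background guide of the group. The upper row holds receptors higher and the lower row receptors lower in libraries titled GFP-, with no overlap between the gates of either treatment in any panel.

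At the other end, the receptors above the guide with mean ratios nearest 0 were Olfr597, Olfr609, Olfr65, Olfr667 and Olfr659. Olfr609 had 12.11, 10.98, 11.57 and 10.51 in odor titled GFP- libraries, against 11.75, 11.88, 10.94 and 10.24 in odor titled GFP+ libraries. Vehicle titled GFP- libraries had 11.54, 11.29, 11.05 and 10.56, against 11.49, 11.36, 11.31 and 10.30 in vehicle titled GFP+ libraries. The gates overlapped, and the 95% interval of the ratio was -0.40 to 0.58 in odor and -0.49 to 0.48 in vehicle pools. For Olfr597 the ratios changed sign between pools, from -0.67 to 1.15 in odor pools and from -1.87 to 0.84 in vehicle pools, so that its small mean rests on opposite values.

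Members with known roles fell in both directions or near 0. Olfr544, a receptor for azelaic acid, had ratios of 0.97, 0.49, 0.46 and 0.60 in odor pools, against 0.56, -0.06, -0.12 and 0.28 in vehicle pools. It passed in odor pools (0.63 ± 0.15, SE, limma adjusted p = 0.0138) but not in vehicle pools (0.17, adjusted p = 0.506). The odor call was lost without the pool block (adjusted p = 0.413), with centring on class II (0.112) and without odor pool 1 (0.0688). Olfr545, known as receptor S50, was lower in both, with -0.76 ± 0.19 in odor pools (adjusted p = 0.02) and -1.30 ± 0.19 in vehicle pools (adjusted p = 0.000787). In odor pools this was lost without the pool block (adjusted p = 0.222), with libraries centred on their medians (0.0829), without odor pool 2 (0.102) and without odor pool 4 (0.0674).

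Olfr558, which responds to short-chain fatty acids, had 0.59 (adjusted p = 0.148) in odor and -0.07 (adjusted p = 0.891) in vehicle pools. Olfr690, an isovaleric acid receptor, had -2.59, -2.74, -1.50 and 0.67 in odor pools, against -2.97, -1.78, -1.15 and -1.39 in vehicle pools. It passed in vehicle pools (-1.82 ± 0.49, adjusted p = 0.0291) and not in odor pools (-1.54, adjusted p = 0.0556), where pool 4 alone was above 0. Without odor pool 4 the odor ratio was -2.28 (adjusted p = 0.00167), and the vehicle call was lost without vehicle pool 1 (adjusted p = 0.126), 2 (0.0851) or 4 (0.0615) and stood at 0.05 without pool 3. Olfr692, known from neurons of the vomeronasal organ, was higher with 1.81 ± 0.20 in odor and 1.67 ± 0.20 in vehicle pools (SE, adjusted p = 9.33e-05 and 0.000191). Olfr543 lay below the guide in all groups, and Olfr33 did not pass in odor (0.65, adjusted p = 0.166) or vehicle pools (0.39, adjusted p = 0.431).

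Neighbouring receptors in the cluster often had unlike ratios, although pairs called in the same direction outnumbered those called in opposite directions. Of the members, 69 lie before and 50 after the β-globin genes in the RefSeq order. The mean ratios of adjacent receptors had a Pearson correlation of 0.13 over 118 pairs and those 2 places apart 0.05 over 117 pairs, all from the same 16 libraries. At 5 and 10 places apart it was 0.11 and 0.01. Spearman's rho was 0.11, 0.08, 0.22 and 0.01 at 1, 2, 5 and 10 places apart. Of the 118 adjacent pairs 14 were both higher in both treatments, 5 both lower and 9 called in opposite directions. As 38 members were higher and 22 lower in both treatments, pairs of the same direction can outnumber opposite ones in any order. The counts were not set beside shuffled orders and therefore do not show that calls gather along the cluster. In 72 of the 118 pairs both receptors lay above the guide in all 4 groups, so that the step between their ratios was measured on both sides. These steps had a median size of 1.32, and 8 exceeded 4. Among them were 6.29 between Olfr630 and Olfr69, 5.87 between Olfr611 and Olfr612 and 5.52 between Olfr68 and Olfr67.

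Around the β-globin genes the order was Olfr629, Olfr630, Olfr69, Olfr68 and Olfr67 on the near side and Olfr66, Olfr64, Olfr65, Olfr631, Olfr632 and Olfr633 on the far side. The mean ratios in this order were -4.26, 0.65, -5.64, -4.88 and 0.64 on the near side. On the far side they were 1.25, 1.20, -0.05, 0.12, -5.12 and 3.04, so that the sign changed several times within 11 members. Of these, Olfr629 and Olfr632 had titled GFP- means at or below the guide, which limits their values to bounds, and Olfr631 was at or below it in every group. Olfr64 was higher in odor pools (1.41 ± 0.31, limma adjusted p = 0.00967) and did not pass in vehicle pools (0.98, adjusted p = 0.0596). Without vehicle pool 1, where its ratio was -0.53, the vehicle ratio was 1.48 (adjusted p = 0.00046). Olfr66 was higher in vehicle pools (1.83 ± 0.23, adjusted p = 0.000258) and did not pass in odor pools (0.66, adjusted p = 0.0798), where it passed without odor pool 1 (adjusted p = 0.0259). Olfr67 was higher in odor pools (1.08, adjusted p = 0.0141) and lost this call without odor pool 1 (adjusted p = 0.0528) or odor pool 4 (0.066). The embryonic globin genes Hbb-bh1, Hbb-bh2 and Hbb-y lay below the guide in all 4 groups. The erythroid genes Alas2 and Slc4a1 were lower in libraries titled GFP-, at -1.97 and -2.11 in odor pools and -1.27 and -2.29 in vehicle pools.

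Runs of receptors with ratios above 0 in all 8 pools reached 4 members in 3 places, Olfr575 to Olfr578 (mean ratios 0.73 to 2.31), Olfr616 to Olfr619 (1.74 to 2.71) and Olfr646 to Olfr651 (1.57 to 3.04). In these runs the titled GFP+ means of Olfr575, Olfr577 and Olfr619 lay at or below the guide in both treatments. That of Olfr576 did so in odor pools. No run below 0 in all 8 pools was longer than 2, as for Olfr69 with Olfr68 and Olfr677 with Olfr678. Divided at the 3 largest gaps, the cluster had median ratios of 0.52 for the 69 members from Olfr543 to Olfr67, 1.28 for the 16 from Olfr66 to Olfr649, 0.37 for the 11 from Olfr651 to Olfr663 and 0.37 for the 23 from Olfr665 to Olfr692. In the first of these 22 of 69 were higher and 12 lower in both treatments, and in the second 8 of 16 and 1. In the third 3 of 11 were higher and 2 lower, and in the last 5 of 23 and 7. The median of the second ran from 0.30 to 1.64 over the vehicle pools, and that of the first from 0.04 to 0.57. The 3 gaps hold 5 coding globin genes, 11 coding genes of which 10 are Trim genes, and 3 Usp17 genes.

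**Figure D3:**
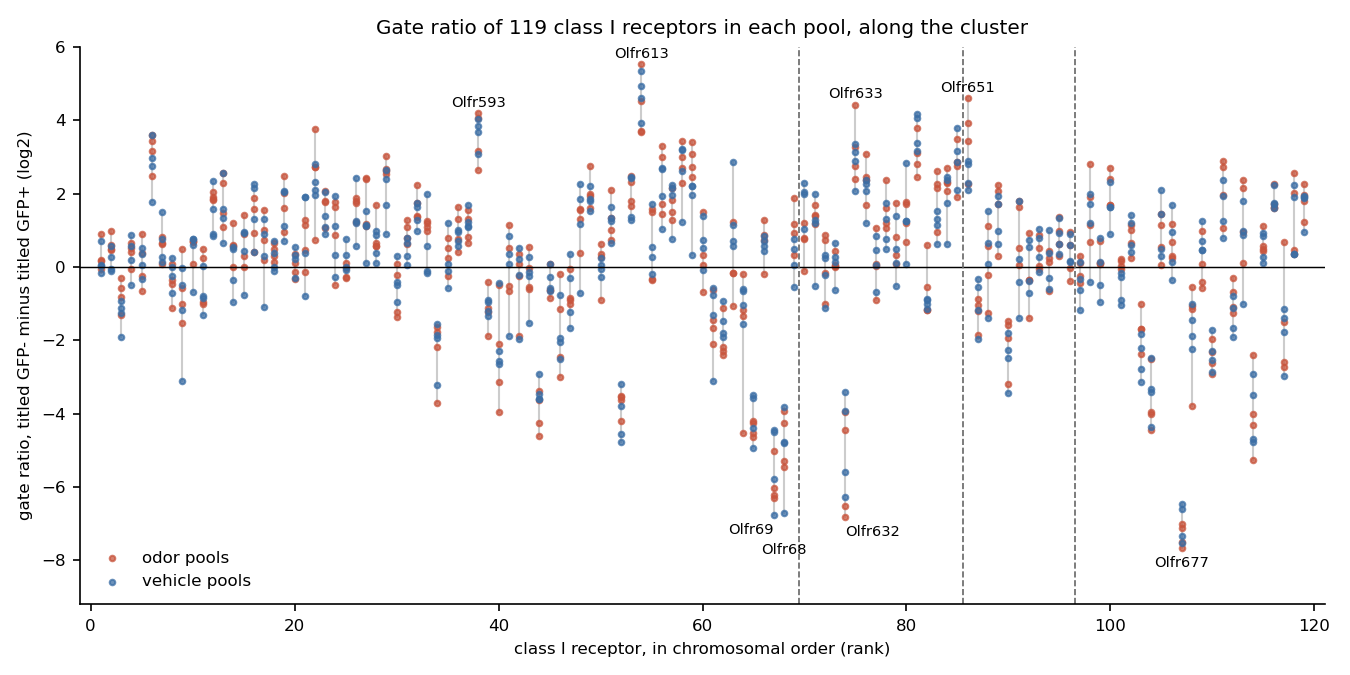
Gate ratio (vertical axis, log2, titled GFP- minus titled GFP+) of the 119 class I receptors by rank in the chromosome 7 cluster (horizontal axis), with 1 point per pool for 4 odor and 4 vehicle pools and a grey line over the range of a receptor. Dashed lines mark the 3 largest gaps, the first at the β-globin genes. Receptors above and below 0 lie side by side along the cluster, as at Olfr630 (0.65) and Olfr69 (-5.64).

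Genes that act in receptor choice and expression showed little difference between the gates. Of 20 measured, 0 were higher and 1 lower in either treatment, with medians of 0.09 in odor and 0.03 in vehicle pools. The one lower gene was Lbr, the lamin B receptor, whose loss allows heterochromatin to gather in olfactory neurons, at -1.03 (adjusted p = 0.000119) and -1.09 (adjusted p = 8.66e-05). Genes of neutrophils and progenitors were also lower in libraries titled GFP-, and the part of such other cells in the Lbr ratio was not tested. Bcl11b, a zinc finger factor known to restrain class I receptor choice in mice, averaged 10.57 in odor titled GFP-, 10.56 in odor titled GFP+, 10.77 in vehicle titled GFP- and 10.89 in vehicle titled GFP+ libraries and did not pass. Emx2 and Lhx2, homeodomain factors that act at receptor gene promoters and enhancers, had ratios of 0.24 and -0.04 in odor pools and 0.26 and -0.19 in vehicle pools, and neither passed.

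Of 4 measured dorsal zone genes 0 were higher and 1 was lower, Tshz1, a zinc finger factor, at -0.37 in odor pools (adjusted p = 0.0431) and -0.45 in vehicle pools (adjusted p = 0.0193). Nqo1, the enzyme that marks the dorsal zone where class I neurons lie, had ratios of 0.05 and 0.02. Of 8 measured ventral zone genes 0 passed in either treatment. Immature neuron genes moved with the gates, since 4 of 6 were lower in libraries titled GFP- in both treatments, including Gap43, a growth cone protein, at -2.39 and -2.85. Their part in the class I ratios was not tested.

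The second comparison asked whether bourgeonal changed the class I receptors. The ratio in odor pools minus the ratio in vehicle pools passed for 0 of 119 class I receptors in limma, as for 0% of all genes, and 9 class I receptors (7.56%) had an unadjusted p under 0.05, beside 5.69% of all genes and 7.18% of class II. Odor against vehicle within libraries titled GFP- also passed for 0 of 119, as for 0% of all genes, with 3 (2.52%) at an unadjusted p under 0.05, beside 4.46% of all genes. Within libraries titled GFP+ 0 of 119 passed, against 0.0103% of all genes, with 5 (4.20%) at an unadjusted p under 0.05, beside 4.24% of all genes. The median class I values were 0.14, 0.05 and -0.10 for these 3 comparisons, beside 0.13, 0.03 and -0.08 for class II and 0.02, 0.01 and -0.01 for all genes. Odor and vehicle ratios did not overlap in 2 receptors (1.68%), Olfr619 and Olfr669, where the odor pools were the higher ones, against 1.89% of all genes, and 0 receptors had all odor pools lower, against 1.6% of all genes. These shares are close to or under those of genes at large.

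Olfr619 had the smallest p among class I receptors for odor within libraries titled GFP-. It had 7.42, 7.21, 6.76 and 7.18 in odor titled GFP- libraries, against 5.51, 5.41, 6.20 and 4.25 in vehicle titled GFP- libraries. In libraries titled GFP+ it had 4.01, 4.12, 4.31 and 4.45 in odor pools, against 3.30, 3.21, 4.23 and 3.94 in vehicle pools, all below the guide of their group. The odor values lay above the vehicle values in titled GFP- libraries, by 1.80 (95% interval 1.05 to 2.55, adjusted p = 0.816), whereas those in titled GFP+ libraries overlapped. Its ratio differed between treatments by 1.25 (95% interval 0.33 to 2.16, adjusted p = 0.823), and vehicle pool 4, with a ratio of 0.32 beside 1.97 to 2.21 in the other vehicle pools, was the lowest of all 8. In vehicle pool 4 both gates, at 4.25 in titled GFP- and 3.94 in titled GFP+, lay below the guide of their group.

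Olfr66, the first class I gene beyond the β-globin genes, had the smallest p for the difference of the ratios. It had 6.22, 5.82, 6.09 and 5.93 in odor titled GFP- libraries, against 7.46, 6.60, 6.63 and 6.64 in vehicle titled GFP- libraries. In libraries titled GFP+ it had 6.32, 5.02, 4.90 and 5.18 in odor pools, against 5.47, 5.56, 4.60 and 4.36 in vehicle pools. All titled GFP- odor values lay below the vehicle ones, whereas the titled GFP+ values overlapped. The ratio differed by -1.17 (95% interval -1.91 to -0.44, adjusted p = 0.823), and titled GFP- libraries by -0.82 (95% interval -1.28 to -0.36, adjusted p = 0.996).

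Olfr669 had ratios of 0.02, 0.23, -0.05 and 0.16 in odor pools, against -0.90, -0.28, -0.18 and -1.03 in vehicle pools. The difference was 0.68 (95% interval 0.18 to 1.18, adjusted p = 0.823), and it is small beside the gate ratios described above. Olfr67 had ratios of 1.16, 0.34, 0.93 and 1.88 in odor pools, against -0.56, 0.49, 0.06 and 0.77 in vehicle pools, which overlap. Olfr624 had the widest difference, -1.36 (95% interval -2.62 to -0.11, adjusted p = 0.848), with ratios of -0.16, -1.06, -0.16 and 1.21 in odor pools, against 0.71, 1.15, 2.87 and 0.56 in vehicle pools. The pools of Olfr624 overlapped and spread over more than the difference itself. Its vehicle titled GFP+ mean, at 4.65, lay just above the guide of 4.64. In vehicle pool 1 both gates, at 4.09 in titled GFP- and 3.38 in titled GFP+, lay below the guide of their group. Olfr646, Olfr651 and Olfr671, the remaining ones of the 8 with the smallest p, had differences of 0.84, 1.03 and 0.80 (adjusted p = 0.848, 0.857 and 0.859).

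**Figure D4:**
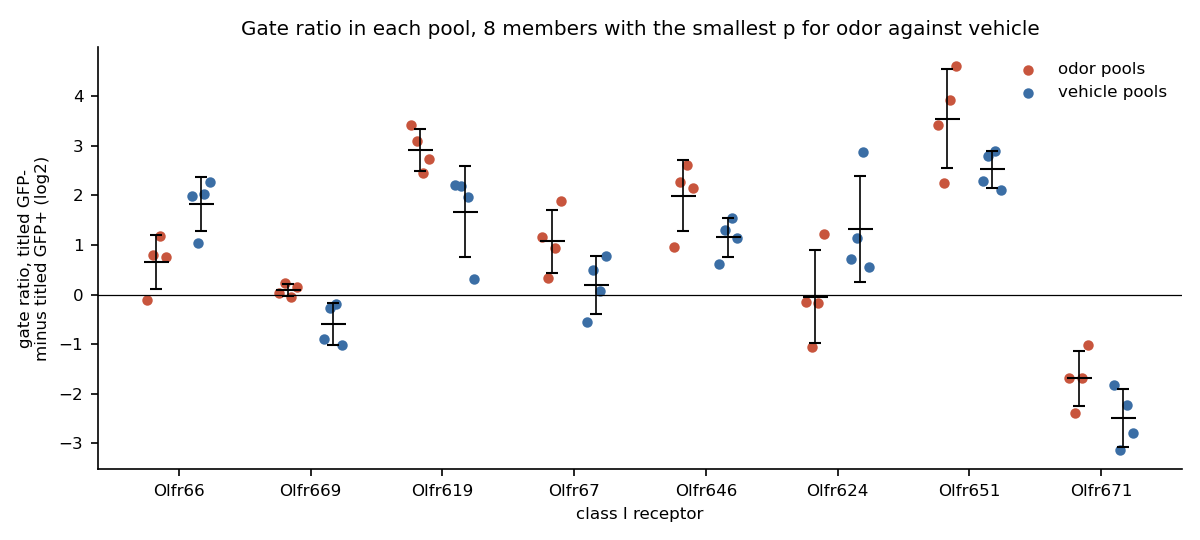
Gate ratio (vertical axis, log2, titled GFP- minus titled GFP+) in each odor and vehicle pool for the 8 class I receptors with the smallest p for odor against vehicle. Points are pools, and black marks give the mean ± SD of 4 pools. Only Olfr619 and Olfr669 of these 8 have no overlap between odor and vehicle pools, and none passed the test over all genes.

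Within libraries titled GFP+ the smallest p belonged to Olfr576. It had 4.19, 4.57, 3.41 and 3.99 in odor titled GFP+ libraries, against 5.05, 4.96, 4.53 and 5.06 in vehicle titled GFP+ libraries. The shift was -0.86 (95% interval -1.38 to -0.34, adjusted p = 0.999), and the odor titled GFP+ mean lay at or below the background guide. Olfr672 had 12.90, 13.24, 13.25 and 13.47 in odor titled GFP+ libraries, against 13.52, 13.81, 13.69 and 13.47 in vehicle titled GFP+ libraries, a shift of -0.41 (95% interval -0.77 to -0.05, adjusted p = 0.999). Among receptors with known acid ligands the odor shift in libraries titled GFP- was 0.15 for Olfr544 (95% interval -0.80 to 1.10), 0.16 for Olfr558 (-0.45 to 0.76) and -0.19 for Olfr690 (-0.75 to 0.37). A p that misses the threshold does not show that these levels were equal, and the intervals allow shifts of up to about 1.10.

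**Figure D5:**
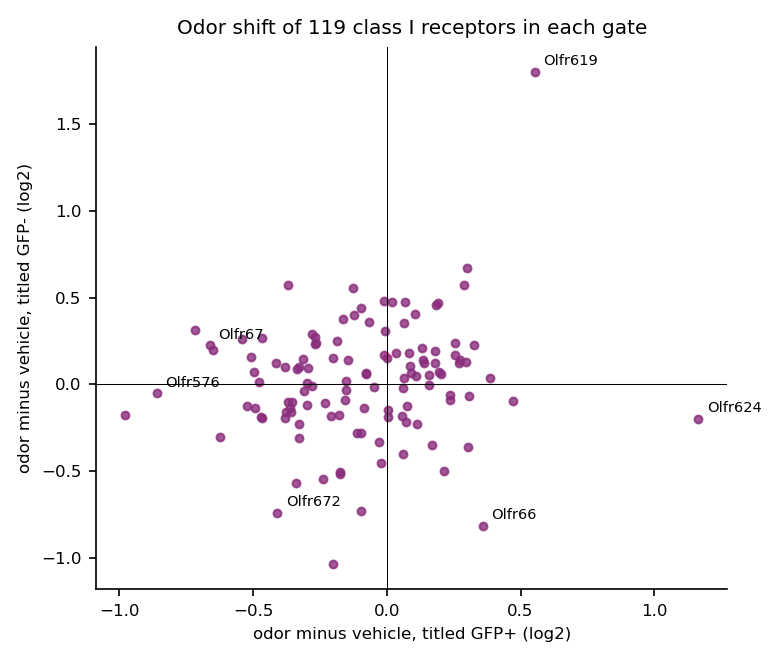
Odor minus vehicle (log2) in libraries titled GFP- (vertical axis) against the same in libraries titled GFP+ (horizontal axis), with 1 point per class I receptor (n = 119). Most points lie near 0, with Olfr619 at 1.80 in titled GFP- and Olfr624 at 1.17 in titled GFP+ farthest out in their gates, and none passed the test over all genes. The vehicle titled GFP+ mean of Olfr624 was 4.65, beside a background guide of 4.64.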

How the data were processed

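Expression was measured on Clariom S arrays in 16 libraries of sorted olfactory mucosa cells, 4 per group. The deposited log2 values were made by the authors, and the submitters' processing notes name Affymetrix Expression Console. Its version, the summarisation and the build are not stated in the labels. The number of arrays limits the precision. Of 28846 probe sets, 94 spike-ins and 6546 controls were left out, 19572 named 1 gene, 0 several and 2634 none. The brightest probe set of a gene was kept, which left 19505 genes. Old Olfr symbols were kept, and cross-hybridisation between near-identical receptors was not tested.

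limma 3.58.1 in R 4.3.3 (lmFit, eBayes) fitted gate ratios to the 16 libraries with pools as blocks, and odor against vehicle within each gate over 8 libraries without a block. Two-sided p-values were adjusted over the 19505 genes (Benjamini-Hochberg, threshold 0.05), and the fits were tested on simulated data. The p-values measure the spread between these pools. Fold bounds set each library of a dim gate to its own percentile of the vomeronasal receptors, or to its own value where higher. The background guide of a group is the highest of these percentiles, so bounds taken at it would be equal or smaller. Named members were the 10 highest and 10 lowest mean ratios called in both treatments with the brighter gate above the guide, 5 nearest 0, the 8 smallest p in each odor comparison, and Olfr33, Olfr64 to Olfr69, Olfr543 to Olfr545, Olfr558, Olfr690 and Olfr692. Members and lists were chosen with earlier results of these data known.

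Both gates of a pool were paired, as 24 mice in 8 pools imply shared animals. After removal of group means they had correlations of 0.135 to 0.287 in odor pools and 0.098 to 0.201 in vehicle pools. For same-numbered odor and vehicle libraries the correlations were 0.157 to 0.210 among libraries titled GFP+ and 0.088 to 0.161 among those titled GFP-. Those of differently numbered odor and vehicle libraries were lower, at -0.182 to 0.110 and -0.135 to 0.078. The labels give the number only as a replicate, and what same-numbered libraries share was not tested. The alternatives were other centrings, quantile normalization, a filter on dim genes, a trended prior, the mean over probe sets, other blocks and leaving out each pool.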

Additional observations from a re-analysis of the deposited data

Results flagged for a closer look

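Of 90 groups of 4 pool ratios from the 45 members named by rule, 5 held a pool far from the other 3 by Dixon's gap test, about as many as the 1 in 20 that chance gives. Olfr619 had a ratio of 0.32 in vehicle pool 4, where both gates lay below the guide of their group, with 1.97 to 2.21 in the other vehicle pools. Olfr692 had 0.96 in vehicle pool 1, with 1.89 to 1.92 in the others. Olfr611 had -4.21 in odor pool 3, with -3.62 to -3.53 in the others. Olfr667 had 0.70 in odor pool 3, with 0.07 to 0.12 in the others. Olfr577 had 1.69 in odor pool 2, with 0.56 to 0.65 in the others.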

How the results depend on the processing

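Centring each library on its own median gave 71 higher class I receptors in odor pools and 66 in vehicle pools, against 47 and 41 with the deposited values. That centring also moved the share of all genes called higher to 54.5% and 53.8%, against 7.82% and 6.23%, so that the class I shares of 59.7% and 55.5% are near it. Under all other alternatives run the counts stayed within 1.5 times. In odor pools 43 to 53 were higher and 21 to 27 lower, and in vehicle pools 35 to 49 and 22 to 26. The filter on dim genes left 106 members among 12130 genes. The shares of all genes moved more. They were 3.9% to 14.4% higher and 9.5% to 14.7% lower in odor pools. In vehicle pools they were 4.4% to 11.0% and 9.4% to 14.5%. Leaving out each pool gave 40 to 50 and 20 to 22 in odor pools and 33 to 44 and 18 to 26 in vehicle pools. The shares of all genes were then 4.8% to 7.7% and 8.4% to 10.2% in odor pools. In vehicle pools they were 4.0% to 6.2% and 8.3% to 10.0%. With no replicate block between the gates of a pool 45 were higher and 21 lower in odor pools and 35 and 22 in vehicle pools. Of all genes 6.27% were then higher and 9.51% lower in odor pools and 4.85% and 9.43% in vehicle pools. With the number shared by odor and vehicle libraries as a replicate block, 0 class I receptors passed for odor in either gate. No class I receptor passed any odor comparison under any alternative run. Of 928 single gate ratios of named members under alternatives, 893 kept direction and side of the threshold, 22 came to pass it, 13 no longer passed and 0 reversed. None of the 365 odor values passed it. Signal over background limits 12 receptors below the guide in every group, and 4 pools per treatment limit what odor shift could be detected.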
